A study of Mus musculus with 8 samples.

Results

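Bhlhe40 and 8 factors of the circadian clock were followed across WT and Stim1/2-deficient regulatory T (Treg) cells, 9 of the 52459 genes listed. Bhlhe40 was picked for its pattern in these same results, so its values are given as a description with no test. The other 8, Nfil3, Dbp, Tef, Per1, Per2, Nr1d1, Nr1d2 and Arntl, were taken as clock factors by symbol. All 9 passed the filter on low values, set at 10 normalized counts on average over the 8 libraries.

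Treg cells were sorted from mice as CD4+ cells with high CD25, and 8 libraries of their RNA were sequenced in 4 groups of 2. Mutant cells, which the labels call DKO, carried Stim1 fl/fl and Stim2 fl/fl alleles (spelled fl/f and fl/fll there) together with Foxp3-YFPcre and expressed the YFP-tagged Cre recombinase. WT cells were the YFPcre-negative Treg cells. Per the methods both came from pooled spleen and lymph nodes of several female mice heterozygous for Foxp3-YFPcre for each sample, so the WT cells came from hosts of the same kind as the mutant cells and carried unrecombined floxed alleles of Stim1 and Stim2. Cre was driven from the Foxp3 locus, which lies on the X chromosome and in a heterozygous female is expressed with Cre in only some Treg cells, so deletion was limited to cells that had expressed that allele. Cells were either left unstimulated or stimulated in vitro for 16 h with plate-bound antibodies to CD3 and CD28 at 1 µg/ml. Mouse age and the hour at which tissue was taken are not given in the sources used here.

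The libraries held 11851853 to 16306540 reads on genes, and 1 read was worth 0.759 to 1.48 normalized counts. Foxp3, the defining factor of Treg cells, was between 4258 and 11918 normalized counts in every library. In unstimulated cells it was at 4947 and 4258 in DKO against 10001 and 8159 in WT. In stimulated cells it was at 4474 and 7253 in DKO against 8525 and 11918 in WT. Unstimulated libraries were sequenced on lane 4 and stimulated libraries on lane 1, so stimulation cannot be told apart from lane or from the time in culture. The targeted genes were at 1538 and 1868 normalized counts for Stim1 in unstimulated DKO libraries against 1139 and 1377 in WT, and at 904 and 744 for Stim2 against 906 and 908. Reads of the exons that Cre leaves in place enter these counts, so they do not check the deletion. Mutant libraries are called DKO here because they are labelled so. The paper reports checks of its own, with Stim1 and Stim2 lost by RT-PCR in Treg cells of male mutant mice. It also reports that YFP-positive Treg cells of heterozygous females lacked store-operated calcium entry. Unstimulated DKO replicate 1 stood apart from the other 7 libraries. Its 11 markers of macrophages and myeloid cells summed to 10439 normalized counts, against 1652 in unstimulated DKO replicate 2 and 228 to 349 in the other 6. None of these markers was at 0 in either unstimulated DKO library, and 2 to 5 of them were at 0 in each of the others. For the 9 genes, differences that rest on unstimulated DKO cells are therefore given with and without that library. The part of these transcripts in the results was not tested. Leaving out 1 library leaves its group with 1, whose own spread then drops out of the test. A call kept or gained in that way is therefore no support, and only the size of the difference is read. In bulk RNA of this kind, fewer cells that express a gene and less RNA per cell cannot be told apart.

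The circadian clock is a feedback loop of transcription present in nearly all mammalian cells. A heterodimer of BMAL1, encoded by Arntl, and CLOCK binds E-boxes and activates the Per and Cry genes, whose products return to the nucleus to inhibit the heterodimer. Nr1d1 and Nr1d2 encode the nuclear receptors REV-ERBα and REV-ERBβ, which repress Arntl, while the ROR receptors activate it from the same elements. DBP and TEF activate D-box elements, and NFIL3 (E4BP4) represses them. BHLHE40 (DEC1) represses transcription from E-boxes, and in T cells it is known for limiting Il10 expression and favouring inflammatory cytokines, while NFIL3 is known in T cells as a factor promoting Il10 and Havcr2.

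Promoter sequence is shown for 5 members, in windows chosen because they held a letter match to a motif through which the loop is known to act. A matching window of Arntl and the other matching window of Tef are not shown. RefSeq windows on GRCm38.p6, from 250 bases before to 50 bases after a transcript start, matched 7 of the 9 members with 10 windows. Bhlhe40 and Per2 had no entry. Each window is written 5′ to 3′ on the strand named. Motifs in capitals were searched on both strands: the E-box CACGTG, its variant CACGTT (read as AACGTG on the other strand), the half-site AGGTCA of REV-ERB and ROR receptors (read as TGACCT), the D-box TTATGTAA or TTACGTAA, and the cAMP response element TGACGTCA.
Per1, chr11:69098699-69098998, + strand: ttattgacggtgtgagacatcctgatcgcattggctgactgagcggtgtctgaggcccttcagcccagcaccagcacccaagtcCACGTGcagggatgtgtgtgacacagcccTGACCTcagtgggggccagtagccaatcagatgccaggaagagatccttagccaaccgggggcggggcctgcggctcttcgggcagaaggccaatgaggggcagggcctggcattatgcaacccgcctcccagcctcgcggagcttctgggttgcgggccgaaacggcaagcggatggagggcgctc
Tef, chr15:81802423-81802722, + strand: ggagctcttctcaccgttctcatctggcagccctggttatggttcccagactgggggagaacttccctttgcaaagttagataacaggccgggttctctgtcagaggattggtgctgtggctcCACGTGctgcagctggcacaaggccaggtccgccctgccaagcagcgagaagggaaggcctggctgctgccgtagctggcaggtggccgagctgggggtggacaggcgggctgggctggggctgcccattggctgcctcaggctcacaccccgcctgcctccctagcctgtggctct
Nr1d1, chr11:98775328-98775627, - strand: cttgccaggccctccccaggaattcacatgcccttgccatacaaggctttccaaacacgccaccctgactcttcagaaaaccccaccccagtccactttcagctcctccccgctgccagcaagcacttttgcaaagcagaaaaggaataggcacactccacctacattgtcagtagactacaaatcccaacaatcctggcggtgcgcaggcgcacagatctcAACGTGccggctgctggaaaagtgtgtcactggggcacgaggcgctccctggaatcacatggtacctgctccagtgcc
Nr1d2, chr14:18239057-18239356, - strand: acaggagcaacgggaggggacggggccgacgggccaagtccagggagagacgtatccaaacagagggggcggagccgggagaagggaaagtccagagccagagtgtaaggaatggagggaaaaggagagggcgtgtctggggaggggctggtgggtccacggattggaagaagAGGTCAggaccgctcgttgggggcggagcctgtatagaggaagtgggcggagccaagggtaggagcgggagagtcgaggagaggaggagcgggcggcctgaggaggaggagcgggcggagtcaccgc
Nfil3, chr13:52980990-52981289, - strand: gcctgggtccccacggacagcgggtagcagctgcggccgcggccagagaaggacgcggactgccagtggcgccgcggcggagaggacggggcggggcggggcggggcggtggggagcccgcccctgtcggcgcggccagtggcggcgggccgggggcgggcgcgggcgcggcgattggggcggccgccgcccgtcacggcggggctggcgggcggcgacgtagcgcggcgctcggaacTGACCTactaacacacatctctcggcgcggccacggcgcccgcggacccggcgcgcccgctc

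CACGTG was in 3 of the 10 windows, the Per1 window above and both windows of Tef, against 7.15% of the 32851 promoters in the table. It began 166 bases before the Per1 start and 127 bases before the Tef start shown. CACGTT was found in 1 window, that of Nr1d1, 28 bases before the start, and in 4.68% of all promoters. AGGTCA was held by 4 windows, those of Per1, Nr1d2 and Nfil3 shown above and the downstream one of Arntl, against 16.3% of all promoters. D-boxes and the cAMP response element were in no member window, and in 1.06% and 1.79% of all promoters. A match describes letters only and does not show that a factor binds there.

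Bhlhe40 (chr6:108660629-108666925 on GRCm38.p6) was highest in unstimulated WT cells, at 15408 and 14558 normalized counts. The unstimulated DKO libraries held 2245 and 4239, a mean of 3242 ± 1410 (SD, n = 2) that was 21.6% of the WT mean of 14983 ± 601 (SD, n = 2). After stimulation it lay at 1676 and 1057 in WT cells and at 2010 and 776 in DKO cells. Both unstimulated WT libraries thus lay above the other 6, the unstimulated DKO libraries lay between them and the stimulated ones, and the stimulated genotypes overlapped. On the scale of log2(normalized count + 1), where every difference below is given, DKO differed from WT by -2.28 (SE 0.42) in unstimulated cells and by -0.09 (SE 0.42) in stimulated cells. Stimulated against unstimulated cells differed by -3.49 (SE 0.42) in WT and by -1.30 (SE 0.42) in DKO. With 1 library of the contrast left out, this DKO value lay between -1.99 and -0.62, and it was -1.76 without unstimulated replicate 1. Without unstimulated DKO replicate 1 the unstimulated genotype difference was -1.82, and without replicate 2 it was -2.74. The same library left out gave an interaction of 1.73 in place of the 2.19 given below. No test is attached to any of these values, since the gene was chosen by them.

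**Figure D1:**
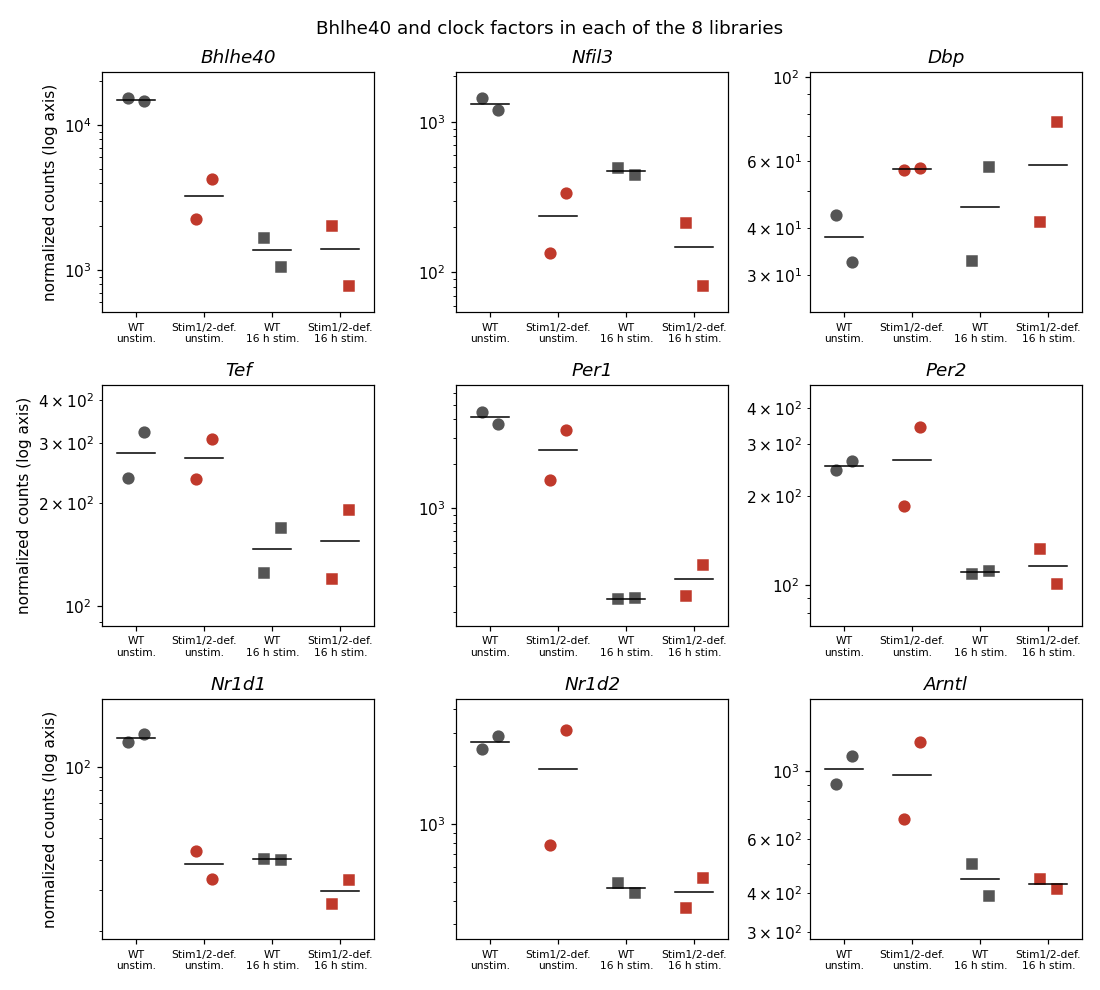
Normalized counts (log axis) of Bhlhe40 and the 8 clock factors in each library, by group, with a point for each library and a line at the mean of the 2 libraries. Bhlhe40, Nfil3 and Nr1d1 were highest in the 2 unstimulated WT libraries, whereas Per2, Nr1d2 and Arntl spread within the unstimulated DKO group, in which replicate 1 is the left point.

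Genotype was first compared in unstimulated cells, which asks whether the factors differ between WT and DKO cells without further receptor stimulation. Of the 8 tested members, Nfil3 and Nr1d1 fell in DKO cells and none rose. A difference was called when it exceeded 1.5-fold and its adjusted p was below 0.05 (limma with Benjamini-Hochberg adjustment over 15419 genes). By that rule 2 of 8 members were called, against 4.73% of all tested genes in either direction. The median difference was -0.44 against -0.01 over all tested genes. Without DKO replicate 1, Nfil3 was at -1.96, Nr1d1 at -1.95 and Per1 at -0.28. The other members then lay between 0.15 (Tef) and 0.60 (Dbp), against a median of 0.03 over all tested genes. The direction of the median of the members thus depended on that library.

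Nfil3 (chr13:52967209-52982878), the repressor at D-boxes, stood at 1430 and 1197 normalized counts in unstimulated WT cells and at 135 and 337 in DKO cells. Both WT libraries were above both DKO libraries, with a difference of -2.61 (SE 0.47, 95% interval -3.66 to -1.56, limma, Benjamini-Hochberg adjusted p = 0.0189), a 6.10-fold decrease. The difference was -1.96 without DKO replicate 1 and -3.26 without replicate 2. Without WT replicate 3 or WT replicate 4 it was -2.48 or -2.74. The call rested on having both WT libraries, as it did for most genes called in this contrast.

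Nr1d1 (chr11:98767932-98775377), the REV-ERBα gene, was at 127 and 137 normalized counts in unstimulated WT cells and at 44.0 and 33.4 in DKO cells. These groups did not overlap, and the difference of -1.76 (SE 0.39, 95% interval -2.63 to -0.88) was called (limma, Benjamini-Hochberg adjusted p = 0.0362), a 3.39-fold decrease. It kept its size, from -1.95 to -1.57, whichever library was left out (-1.95 without DKO replicate 1), but its adjusted p then lay above the threshold each time, from 0.0549 to 0.310 (limma, Benjamini-Hochberg). Nr1d1 overlaps Thra, and whether reads were counted by strand is not stated. Thra itself was at 86.3 and 152 normalized counts in WT and at 151 and 175 in DKO cells.

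Nr1d2 (chr14:18204056-18239106), the REV-ERBβ gene, was at 2473 and 2883 normalized counts in unstimulated WT cells but at 779 and 3113 in DKO cells. The DKO libraries lay on either side of WT, and the difference of -0.78 (SE 0.49, 95% interval -1.88 to 0.32) missed the threshold (limma, Benjamini-Hochberg adjusted p = 0.394). DKO replicate 1 decided the value, which was 0.22 without it and -1.78 without replicate 2. Either way the DKO group then held 1 library, so neither value is read as a call.

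Per1 (chr11:69095108-69109965), an inhibitor of the BMAL1 and CLOCK heterodimer that also responds acutely to signalling, was at 4490 and 3724 normalized counts in unstimulated WT cells. In DKO cells it was at 1561 and 3367, both under WT, and its difference of -0.83 (SE 0.34, 95% interval -1.60 to -0.07) did not pass the test (limma, Benjamini-Hochberg adjusted p = 0.189). The difference was -0.28 without DKO replicate 1, and -1.39 without replicate 2.

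The remaining 4 members gave intervals that spanned 0. Per2 (chr1:91415977-91459351), the paralogue of Per1, was at 245 and 263 normalized counts in unstimulated WT and at 185 and 345 in DKO cells, a difference of -0.01 (95% interval -0.75 to 0.73). Arntl (chr7:113178471-113314126) was at 908 and 1120 in WT and at 699 and 1250 in DKO cells, with a difference of -0.11 (95% interval -0.74 to 0.52). Tef (chr15:81802673-81826863) was at 237 and 324 in WT and at 235 and 309 in DKO cells, with a difference of -0.04 (95% interval -0.77 to 0.68). In all 3 the DKO libraries overlapped the WT range, and the sign of the difference turned when the libraries were scaled to equal totals. It also turned without DKO replicate 1, to 0.44 for Per2, 0.31 for Arntl and 0.15 for Tef. Dbp (chr7:45705100-45710203) was the one member with both DKO libraries above WT, at 56.6 and 57.4 against 43.2 and 32.5 normalized counts, with a difference of 0.59 (95% interval -0.45 to 1.64), or 0.60 without DKO replicate 1. Dbp overlaps Sphk2, which was at 79.8 to 80.9 in WT and at 77.5 to 95.4 in DKO cells.

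Counted by libraries, both DKO values lay below WT for 3 of the 8 members, above WT for 1, and overlapped for 4. Over all tested genes the groups of 2 did not overlap in 53.6%, so 4 of 8 is near that share.

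After 16 h of stimulation, 0 of the 8 members were called between genotypes (limma), against 0.272% of all tested genes. Nfil3 was the 1 member with an unadjusted p under 0.05 (limma), as 2118 of the 15419 tested genes had. It was also the 1 called with DESeq2 on recovered reads, which called 238 genes higher and 287 lower in all. With edgeR 0 members were called, and 1 gene higher and 0 lower in all. Nfil3 was again lower in both DKO libraries, at 212 and 81.9 normalized counts against 497 and 442 in WT. Its difference of -1.82 (SE 0.47, 95% interval -2.87 to -0.77) did not pass the adjusted threshold (limma, Benjamini-Hochberg adjusted p = 0.123). It was -2.50 without stimulated DKO replicate 1 and -1.14 without stimulated DKO replicate 2. With DESeq2 on all libraries it was -1.67 and called. Nr1d1 was at 26.2 and 32.9 in DKO and at 40.5 and 40.2 in WT, with a difference of -0.45 (95% interval -1.32 to 0.43). Per1 lay higher in both DKO libraries, at 255 and 410 against 242 and 248, a difference of 0.40 (95% interval -0.36 to 1.16) that did not pass (limma, Benjamini-Hochberg adjusted p = 0.667) and was 0.055 without stimulated DKO replicate 2.

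The other 5 members overlapped between the stimulated genotypes. Per2 was at 132 and 100.5 normalized counts in DKO and at 109 and 112 in WT cells. Nr1d2 was at 364 and 527 in DKO and at 491 and 440 in WT cells, and Arntl at 445 and 414 against 499 and 391. Tef stood at 120 and 191 in DKO and at 125 and 169 in WT cells, and Dbp at 41.3 and 76.0 against 32.7 and 57.7. Their differences ranged from -0.08 for Nr1d2 to 0.36 for Dbp. Groups did not overlap for 3 of the 8 members, against 47.4% of all tested genes.

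**Figure D2:**
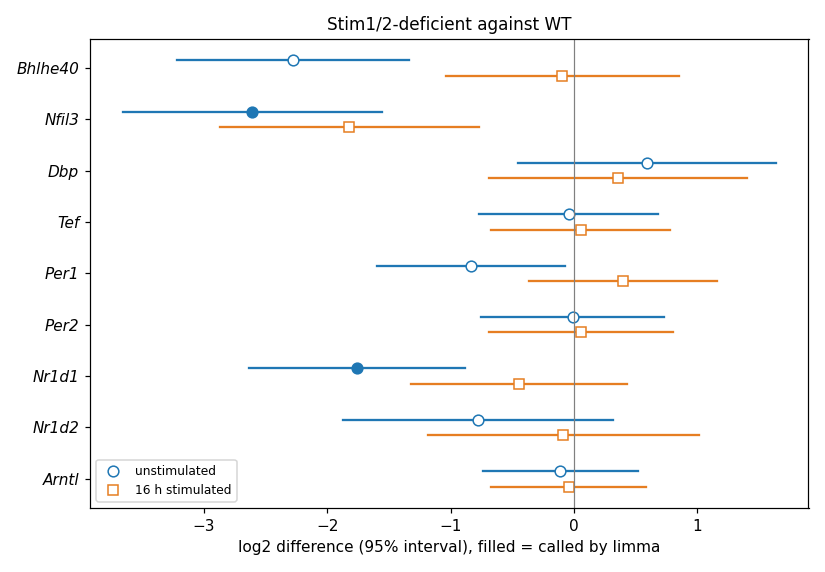
Log2 difference of DKO against WT (x axis) for each gene in unstimulated and in 16 h stimulated cells, with 95% intervals from limma. Filled points, Nfil3 at -2.61 and Nr1d1 at -1.76 in unstimulated cells, were called, and Bhlhe40 is drawn without a test.

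The change of the genotype difference between the unstimulated and stimulated states was tested as an interaction. It was called for 0 of the 8 members, and for 0% of all tested genes (limma), although 2 members (Per1 and Nr1d1) and 1257 genes in all had an unadjusted p under 0.05. DESeq2 called 0 members, and 34 genes higher and 13 lower. Nr1d1 gave an interaction of 1.31 (SE 0.56, 95% interval 0.08 to 2.55), whose adjusted p was 0.588 (limma, Benjamini-Hochberg). Per1 gave 1.23 (SE 0.48, 95% interval 0.15 to 2.31) with an adjusted p of 0.569 (limma, Benjamini-Hochberg). Those of Nfil3 (0.79) and Nr1d2 (0.69) had intervals spanning 0, and the other 4 lay between -0.23 and 0.10. Nr1d2 reached 1.69 without unstimulated DKO replicate 2, and was -0.31 without replicate 1. Without replicate 1 the interactions of Nr1d1, Per1 and Nfil3 were 1.51, 0.68 and 0.13, and those of the other 4 lay between -0.38 and -0.10. The Bhlhe40 value, 2.19 (SE 0.60), is descriptive.

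Stimulated and unstimulated cells of each genotype were then compared. In WT cells 6 of the 8 members fell and none rose, against 13.1% of all tested genes called lower, and their median was -1.34 against 0.01 over all genes. Both stimulated libraries were below both unstimulated ones for 7 of 8 members, and for 36.0% of all genes. In DKO cells 4 of 8 fell, against 12.0% of all genes, with a median of -0.97 against -0.03, and both stimulated libraries were below both unstimulated ones for 6 of 8, against 30.6% of all genes. These contrasts share unstimulated or stimulated libraries with the genotype contrasts and are not separate evidence.

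Per1 had the largest difference among the 8. It went from 4490 and 3724 normalized counts to 242 and 248 in WT cells, a 16.6-fold decrease (log2 difference -4.05, SE 0.34, limma, Benjamini-Hochberg adjusted p = 0.000189). In DKO cells it went from 1561 and 3367 to 255 and 410, a 7.07-fold decrease (log2 difference -2.82, SE 0.34, limma, Benjamini-Hochberg adjusted p = 0.000737). In both genotypes the stimulated libraries lay far below the unstimulated ones. With 1 library left out, the DKO difference lay between -3.38 (without unstimulated replicate 1) and -2.27 (without unstimulated replicate 2).

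Nr1d2 fell by 2.52 on the log2 scale in WT cells (SE 0.49, limma, Benjamini-Hochberg adjusted p = 0.00669), and its difference in DKO cells was -1.83 (SE 0.49, limma, Benjamini-Hochberg adjusted p = 0.0229). Unstimulated DKO libraries moved the latter most, to -2.83 without replicate 1 and to -0.83 without replicate 2. Per2 fell in both, with differences of -1.19 in WT and -1.13 in DKO cells (SE 0.33 in each, limma, Benjamini-Hochberg adjusted p = 0.0281 and 0.0335). Arntl, the positive arm of the loop, also fell in both, with differences of -1.19 and -1.12 (SE 0.28 in each, limma, Benjamini-Hochberg adjusted p = 0.0147 and 0.0171). In DKO cells Per2 and Arntl were -1.57 and -1.54 without unstimulated replicate 1, and -0.68 and -0.70 without unstimulated replicate 2.

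Nfil3 and Nr1d1 passed in WT cells and not in DKO cells, a contrast whose own test was the interaction above. Nfil3 fell by 1.48 in WT cells (SE 0.47, limma, Benjamini-Hochberg adjusted p = 0.0463), and its difference in DKO cells was -0.69 (95% interval -1.74 to 0.36), which lay between -1.37 and -0.01 with 1 library left out and at -1.35 without unstimulated replicate 1. Nr1d1 fell by 1.69 in WT cells (SE 0.39, limma, Benjamini-Hochberg adjusted p = 0.0136), and its difference in DKO cells was -0.37 (95% interval -1.25 to 0.50), or -0.18 without unstimulated replicate 1. Stimulated WT cells and unstimulated DKO cells had overlapping levels of Nr1d1, 40.5 and 40.2 against 44.0 and 33.4 normalized counts. Tef, at -0.93 in WT and -0.83 in DKO cells, missed the threshold (limma, Benjamini-Hochberg adjusted p = 0.0645 and 0.0889) although its libraries did not overlap in either genotype. Dbp had differences of 0.21 and -0.02, with intervals of -0.84 to 1.26 and -1.07 to 1.02. Without unstimulated replicate 1 the DKO differences of Tef and Dbp were -1.02 and -0.03.

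**Figure D3:**
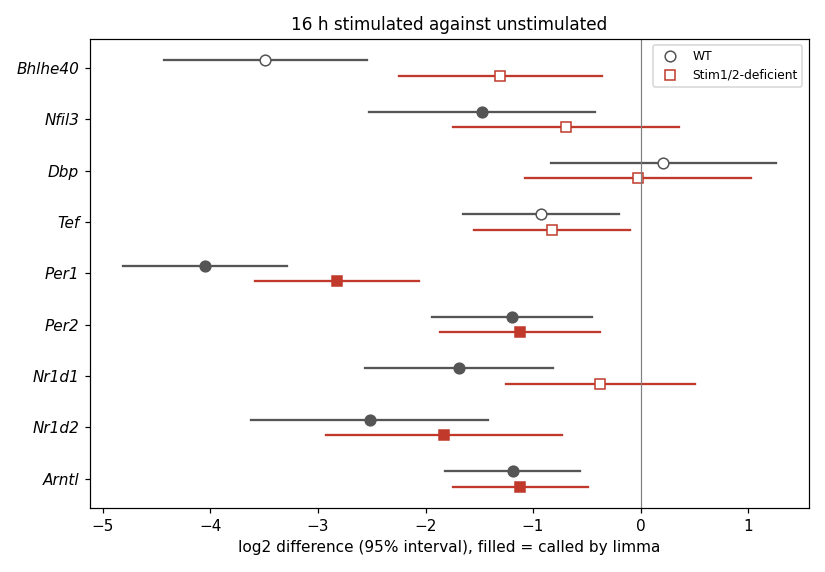
Log2 difference of 16 h stimulated against unstimulated cells (x axis) in WT and in DKO cells, with 95% intervals from limma and filled points for called genes. Per1 lies farthest left of the 8 tested members, at -4.05 in WT and -2.82 in DKO cells, and Dbp lies near 0 in both.

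The stimulation calls depended on scaling and on single libraries. When libraries were scaled to equal totals, the median of all genes moved by 0.51 in the WT contrast and by 0.38 in the DKO contrast, and the share of lower genes among all called genes went from 56.0% to 18.6% in WT and from 48.2% to 22.1% in DKO. Called members were then 3 in WT cells (Per1, Nr1d1 and Nr1d2) and 2 in DKO cells (Per1 and Nr1d2), with Per1 at -3.53 and -2.43. With any 1 library of the contrast left out, 1 or 2 members were called in WT cells and 1 to 4 in DKO cells, with signs kept for each called member. In WT cells Nfil3, Per2, Nr1d1 and Arntl lost the call whichever library was left out, and Nr1d2 without unstimulated replicate 4 or stimulated replicate 2. In DKO cells Per2 and Arntl lost it without any library but unstimulated replicate 1, and Nr1d2 without stimulated replicate 1. In the unstimulated genotype contrast equal totals moved the median by 0.12 and the share of lower genes from 70.8% to 59.4%, and in the interaction the median by -0.13.

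The order of the group means, taken here on normalized counts and not on the log2 scale, differed between members. For Bhlhe40 in stimulated cells and Per2 in unstimulated cells the genotypes stood in the opposite order on the log2 scale. Bhlhe40, Per1 and Tef ran from unstimulated WT through unstimulated DKO and stimulated DKO to stimulated WT, and no neighbouring groups overlapped for Per1 alone. Nfil3 and Nr1d1 ran from unstimulated WT through stimulated WT and unstimulated DKO to stimulated DKO. In that order unstimulated and stimulated DKO cells overlapped for Nfil3, and stimulated WT and unstimulated DKO cells for Nr1d1. Nr1d2 and Arntl were highest in unstimulated WT and Per2 in unstimulated DKO cells, but for these 3 the genotypes overlapped within each state. They overlapped within each state for Tef as well. All neighbouring groups of Dbp overlapped.

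Another 22 clock genes, listed by their known roles, were examined beside the members, of which 19 passed the filter (Arntl2, Rorb and Fbxl21 did not). In unstimulated cells 2 of the 19 fell in DKO cells and none rose, against 4.73% of all tested genes called in either direction, and the median difference was -0.44 against -0.01 over all tested genes. Rora, the receptor that activates Arntl from the elements REV-ERB represses, was at 24477 and 25307 normalized counts in WT and at 2412 and 10125 in DKO cells, a difference of -2.33 (SE 0.49, limma, Benjamini-Hochberg adjusted p = 0.0302). Nampt, the NAD salvage enzyme under clock control, was at 4422 and 5238 in WT and at 1048 and 2722 in DKO cells, a difference of -1.51 (SE 0.35, limma, Benjamini-Hochberg adjusted p = 0.0417). Both were lower in each DKO library than in each WT library. Without DKO replicate 1 they were -1.30 and -0.82, and without DKO replicate 2 they were -3.37 and -2.20. Leaving out WT replicate 3 or WT replicate 4 ended both calls, as it did for most genes called with all libraries. On recovered reads edgeR called 0 of the 19, with an adjusted p of 0.0583 for Rora and 0.0633 for Nampt. It called 131 genes higher and 353 lower in all. DESeq2 called 4 of the 19, and 511 genes higher and 810 lower in all. Clock, the partner of BMAL1, was between 1223 and 1634 normalized counts in all 8 libraries.

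In stimulated cells 0 of the 19 were called between genotypes by limma, edgeR or DESeq2, with a median of -0.16 and an unadjusted p under 0.05 for 1. The interaction was called for 0 by the same tools, with 1 unadjusted p under 0.05, and for 2 by limma without unstimulated DKO replicate 2. Between unstimulated and stimulated cells 5 of the 19 fell in WT and 4 in DKO cells, against 13.1% and 12.0% of all tested genes. Rora (-3.83 and -2.54), Bhlhe41 (-4.20 and -3.80), Cry2 (-1.47 and -1.05) and Usp2 (-2.42 and -2.88) fell in both, and Csnk1d fell in WT cells (-0.87). Bhlhe41 encodes DEC2, the closest relative of BHLHE40, Cry2 is a partner of the PER proteins, and Csnk1d encodes a kinase of the PER proteins. Per3 (1.42) and Wee1 (1.54) rose in DKO cells, where 13.0% of all tested genes were called higher, while their WT differences of 0.77 and 0.79 did not pass. With each library left out in turn, 1 to 4 of the 19 were called with stimulation in WT cells (4 without stimulated replicate 1, and 1 without any other) and 3 to 8 in DKO cells (3 without unstimulated replicate 2 or stimulated replicate 1, and 8 without unstimulated replicate 1). Leaving out stimulated DKO replicate 1 also changed the calls of the genotype contrast, over all tested genes as well as among the 19. That group then held 1 library, so no call is read from it.

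**Figure D4:**
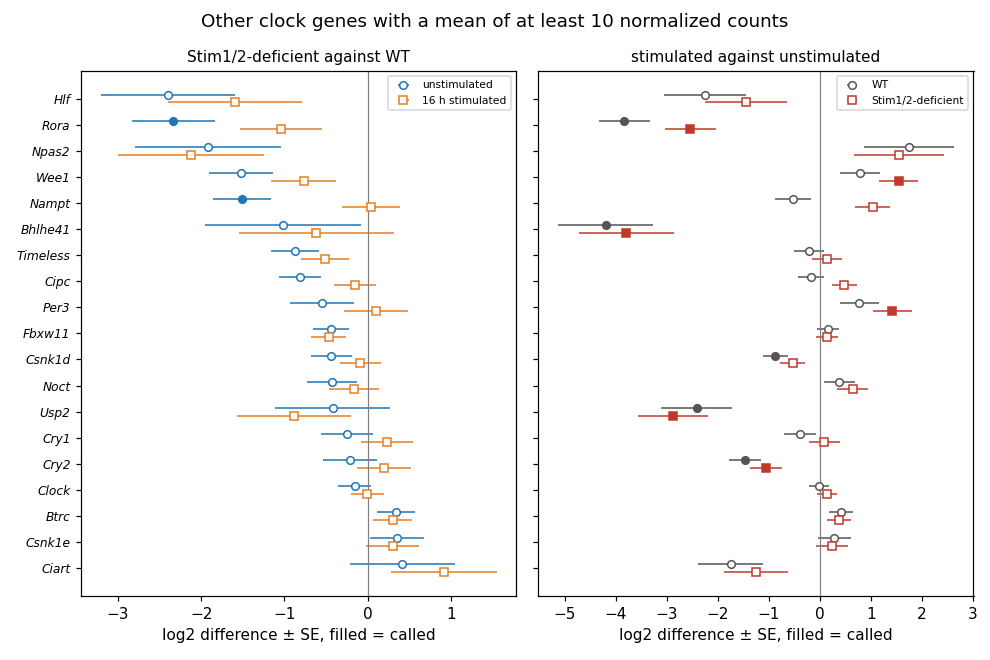
Log2 differences ± SE of the 19 other clock genes that passed the filter, DKO against WT on the left and stimulated against unstimulated on the right, with filled points for genes called by limma. Rora and Nampt are the filled unstimulated points on the left.

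Glucocorticoid-responsive genes were listed because Per1 is also induced by these hormones. Of the 8, 0 were called between genotypes in either state (limma). An unadjusted p under 0.05 was found for 3 in unstimulated and 1 in stimulated cells, against 3395 and 2118 of 15419 tested genes (limma). DESeq2 called 2 and 1 of the 8. Over all genes it called 511 higher and 810 lower in unstimulated cells, and 238 and 287 in stimulated cells. With edgeR 0 of the 8 were called in either state. In both genotypes 4 fell with stimulation, against 13.1% of all tested genes in WT and 12.0% in DKO cells. Tsc22d3, which encodes GILZ, fell in WT (-4.0) and in DKO cells (-2.66), as did Dusp1, a MAP kinase phosphatase (-3.73 and -3.36), and Nr3c1, the glucocorticoid receptor (-0.87 and -0.78). Sgk1 fell in WT cells (-1.50) and Klf9 in DKO cells (-1.41). Fkbp5 (-0.20 in WT and 0.58 in DKO cells), Ddit4 (-0.43 and 0.06) and Zbtb16 (-0.76 and -0.03) were not called in either genotype. Without unstimulated DKO replicate 1, Fkbp5 was 0.87 with stimulation in DKO cells.

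T cell genes known to be linked to BHLHE40 or NFIL3 were Il10, Csf2, Ifng, Havcr2 and Foxp3. In unstimulated cells 2 of 5 fell in DKO cells and none rose, against 4.73% of all tested genes called. Foxp3 differed by -0.98 in unstimulated and by -0.82 in stimulated DKO cells. Neither was called (limma, Benjamini-Hochberg adjusted p = 0.0591 and 0.177). Il10 was at 885 and 923 normalized counts in WT and at 50.3 and 56.1 in DKO cells, with a difference of -4.06 (SE 0.36, limma, Benjamini-Hochberg adjusted p = 0.00106). Havcr2, which encodes TIM-3, was at 1594 and 1322 in WT and at 208 and 60.1 in DKO cells, with a difference of -3.69 (SE 0.47, limma, Benjamini-Hochberg adjusted p = 0.0057). Both were lower in every DKO library, and without DKO replicate 1 they were -3.99 and -4.57. Havcr2 lost its call without WT replicate 3 or 4, as did most genes called with all libraries. In stimulated cells Il10 was at 253 and 104 in DKO against 779 and 870 in WT cells. The difference of -2.34 (SE 0.36, limma, Benjamini-Hochberg adjusted p = 0.0392) was called. It no longer passed with edgeR (adjusted p = 0.0594), nor without either WT library or DKO replicate 2. The same held for most genes called with all libraries. Csf2 rose with stimulation in both genotypes from at most 2.16 normalized counts, within 3 reads of 0, to 52.4 and 88.1 in WT and 9.29 and 71.5 in DKO cells. Ifng (2.99) and Il10 (1.59) rose with stimulation in DKO cells, and Havcr2 (-2.38) fell in WT cells. Differences in the other genotype did not pass, at 2.42 for Ifng and -0.13 for Il10 in WT and -0.79 for Havcr2 in DKO cells. The interaction was called for 0 of the 5. Ifng was uneven between replicates 1 and 2, at 142 and 25.4 in unstimulated DKO, 1201 and 198 in stimulated DKO and 899 and 322 in stimulated WT cells. In all 1 of the 5 rose in WT and 3 in DKO cells, against 10.2% and 13.0% of all tested genes called higher. With each library left out in turn, 0 or 1 of the 5 was called with stimulation in WT cells (1 without stimulated replicate 1) and 1 to 3 in DKO cells (1 without stimulated replicate 1).

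Sums of macrophage and Treg markers differed from WT in both DKO libraries of the unstimulated contrast in which Nfil3 and Nr1d1 were called. Of 10 tested macrophage and myeloid markers 7 rose in unstimulated DKO cells (median 4.55). Of 7 B cell markers 0 were called (limma, median 2.42), with an unadjusted p under 0.05 for 4. Among all 15419 tested genes, 213 were called higher and 517 lower in that contrast (limma). An unadjusted p under 0.05 was found for 3395 of them (limma). B cell markers summed to 4381 in DKO replicate 1, 1023 in replicate 2, and 1019 to 1252 in unstimulated WT cells. CD8 T and NK markers summed to 908 and 288 in these DKO libraries against 428 and 374 in WT, and 2 of 5 had a negative difference. Of the lists for neutrophils (4 tested), CD8 T and NK cells (5) and erythroid cells (2), 0 genes were called in that contrast, with medians of 2.10, 1.58 and 1.69 and an unadjusted p under 0.05 for 3, 0 and 1. Treg markers summed to 40109 and 47805 in unstimulated DKO against 91902 and 85605 in WT cells, and 2 of 6 fell. In stimulated cells 0 genes of these 6 lists were called between genotypes (limma). An unadjusted p under 0.05 was found there for 3 Treg, 1 B cell, 1 macrophage, 1 neutrophil, 0 CD8 T and NK and 0 erythroid markers. Among all 15419 tested genes, 42 were called there and 2118 had an unadjusted p under 0.05 (limma). Stimulated replicate 1 exceeded replicate 2 in B cell sums, with 1823 against 849 in WT and 2566 against 702 in DKO cells. It also did so for CD8 T and NK sums, with 741 against 538 in WT and 1121 against 300 in DKO cells. The part of these transcripts in the stimulated results was not tested. DKO replicate 2, with the smaller macrophage sum, held 4239 normalized counts of Bhlhe40, 337 of Nfil3 and 33.4 of Nr1d1, each below both WT libraries, while its Nr1d2, Per2 and Arntl were above both.

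Genes with the profile nearest to Bhlhe40 were found by the root mean square difference of centred log2 values over the 8 libraries, among 9147 genes that averaged 100 normalized counts or more. The 10 nearest were n-R5-8s1 (0.414), a ribosomal RNA gene, and then Cxcr4 (0.449), Pmaip1 (0.497), Pqlc1 (0.499), Ipmk (0.504), Gm45266 (0.510), Gadd45b (0.516), Rasgef1b (0.518), Areg (0.547) and Grhl1 (0.577). Cxcr4, a chemokine receptor, had group means of 2106 in unstimulated WT, 907 in unstimulated DKO, 203 in stimulated WT and 194 in stimulated DKO cells. Areg, which encodes the growth factor amphiregulin, had means of 1538, 305, 228 and 215 in the same order. No clock member was among the 10. Nearest to Arntl were Rtn4 (0.111), Slk, Sirt1, Cul3 and Arnt (0.137), and nearest to Dbp were Zfp276 (0.150), Stambpl1, Cltb, Abcd4 and Sipa1l3 (0.192).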

How the data were processed

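RNA-seq of sorted mouse Treg cells was analysed in 8 libraries. The deposited values are a signal, made by the authors from gene read counts through division by a library's size factor. Per the methods, single reads were aligned to NCBIM37 with Bowtie, unique reads were kept, duplicates were removed with Picard, and reads were counted with HTSeq. The submitters' processing notes name mm10, STAR 2.7, bcl2fastq 1.8.4 and DESeq2, and which applies to these values is not given in the sources used here. Positions and promoters are those of RefSeq on GRCm38.p6, matched by symbol. Strandedness of the counting is not stated. Whole reads were recovered from 100% of values (tolerance 0.006 normalized counts) for edgeR and DESeq2. Depth was 11851853 to 16306540 reads on genes.

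Log2(value + 1) of 15419 genes with a mean of at least 10 was fitted with limma 3.58.1 (eBayes with trend, R 4.3.3) over 4 groups of 2. Adding 1 understates the change of low genes. Tests were 2-sided, with Benjamini-Hochberg adjustment within each contrast. Calls needed more than 1.5-fold and an adjusted p below 0.05. Per the methods each sample was a pool of several mice, and which samples shared mice is not stated, so p-values measure the spread between such libraries and not between single mice. Alternatives were pseudocounts of 0.1 and 5, no filter, equal library totals, quantile normalization, edgeR 4.0.16 (TMM) and DESeq2 1.42.0 on recovered reads, the 4 libraries compared alone, a replicate block, and each library left out. The fitting steps were tested on simulated data. All 9 genes were to be named in each contrast, list genes where called, and the 10 genes nearest to Bhlhe40 and 5 nearest to Dbp and Arntl. Of the list genes, 3 are not reported here and were left out of the counts and sums of their lists. The genes and lists were chosen with earlier results of these data known.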

Additional observations from a re-analysis of the deposited data

Results flagged for a closer look

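For Per1 the DKO libraries lay on opposite sides of WT in the unstimulated and stimulated states, although neither genotype difference passed the test. Both unstimulated DKO libraries (1561 and 3367 normalized counts) lay below WT (4490 and 3724), and both stimulated DKO libraries (255 and 410) lay above WT (242 and 248). The differences were -0.83 and 0.40 (limma, Benjamini-Hochberg adjusted p = 0.189 and 0.667), and the stimulated one was 0.055 without stimulated DKO replicate 2. The interaction was 1.23 on the log2 scale (SE 0.48), with an unadjusted p of 0.0290 and an adjusted p of 0.569 (limma, Benjamini-Hochberg), so it did not pass over all tested genes. It ranged from 0.68 to 1.79 with each library left out. Adjusted p over all alternatives ranged from 0.0588 to 0.999 (limma, edgeR and DESeq2, Benjamini-Hochberg). Unstimulated DKO replicate 1, which held the most macrophage and B cell transcripts, also had the lowest unstimulated Per1, and their part in this value was not tested.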

How the results depend on the processing

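Of 328 values of the 8 tested members under alternatives other than leaving out a library, 288 kept their direction and side of the threshold, 17 lost a call, 5 gained one and 18 turned sign. Bhlhe40 had no test. Of its 41 values 38 kept their sign and stayed within the replicate SD, 1 moved beyond it (with stimulation in WT cells, -2.97 with equal totals), and 2 turned sign (between stimulated genotypes, 0.022 with edgeR and 0.030 with DESeq2 in place of -0.09). In the unstimulated genotype contrast 1 member was called in place of 2 without the filter on low values, with equal totals, with edgeR and with only the 4 libraries compared, Nfil3 each time. In stimulated cells DESeq2 called 1 in place of 0. With stimulation, equal totals gave 3 in WT and 2 in DKO cells, and only the 4 libraries compared gave 1 in DKO cells. Signs turned in differences near 0. Equal totals turned Tef (0.078), Per2 (0.11) and Arntl (0.012) in unstimulated cells, the interactions of Tef (-0.030), Per2 (-0.060) and Arntl (-0.062), and Dbp (0.36) and Nr1d1 (0.0052) with stimulation in DKO cells. Quantile normalization turned Tef (0.037), Per2 (0.059) and Arntl (0.0047) in unstimulated cells, the Arntl interaction (-0.028) and Dbp with stimulation in DKO cells (0.018). Per2 in unstimulated cells was 0.050 with edgeR and 0.072 with DESeq2, Dbp with stimulation in DKO cells 0.037 and 0.018, and the Arntl interaction -0.0069 with DESeq2. The cause was not tested.

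With each library left out, called members ranged from 0 to 3 between unstimulated genotypes, 0 to 1 between stimulated ones, 0 to 1 for the interaction, 1 to 2 with stimulation in WT cells and 1 to 4 in DKO cells. Between unstimulated genotypes signs turned within -0.26 to 0.18 for Tef, -0.46 to 0.44 for Per2, -1.78 to 0.22 for Nr1d2 and -0.53 to 0.31 for Arntl. Between stimulated ones they turned within -0.78 to 0.59 for Bhlhe40, -0.074 to 0.79 for Dbp, -0.28 to 0.39 for Tef, -0.13 to 0.25 for Per2, -0.35 to 0.18 for Nr1d2 and -0.22 to 0.13 for Arntl. Interactions turned within -0.67 to 0.20 for Dbp, -0.23 to 0.43 for Tef, -0.38 to 0.52 for Per2, -0.31 to 1.69 for Nr1d2 and -0.35 to 0.49 for Arntl. Dbp with stimulation turned within -0.19 to 0.61 in WT and -0.46 to 0.41 in DKO cells.

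Over all genes the called number ranged from 8 to 1321 between unstimulated genotypes, 0 to 762 between stimulated ones, 0 to 196 for the interaction, 971 to 5232 with stimulation in WT and 1752 to 4868 in DKO cells. Without unstimulated WT replicate 3 or 4, 8 or 23 genes were called between unstimulated genotypes, against 213 higher and 517 lower with all libraries. With equal totals these were 241 and 353. With stimulation 1580 rose and 2013 fell in WT and 1997 and 1855 in DKO cells, and with equal totals 4258 and 974, and 3791 and 1077. A replicate block was possible where groups shared replicate numbers. Between stimulated genotypes it called 0 members, and 45 genes higher and 43 lower against 25 and 17. With stimulation in DKO cells it called 5 members, adding Tef, with 2412 genes higher and 2442 lower. Same-numbered libraries deviated together with a correlation across genes of 0.167 and 0.257, from 2 pairs each, so the numbers are not taken as pairs. With a minimum mean of 10, 9 of the 10 genes nearest to Bhlhe40 were the same. List counts under the alternatives were chosen after seeing the data. With a library left out, glucocorticoid-responsive genes called with stimulation were 3 in WT cells each time and 2 to 5 in DKO cells. With 2 libraries a group, the precision is set by the spread between them, and depth limits Dbp and Nr1d1, at 26.2 to 137 normalized counts, more than the other members.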
